A study of Mus musculus with 2 samples.

Results

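The genes described here are 9 tubulin genes measured in the fetal mouse brain: the alpha-tubulins Tuba1a, Tuba1b, Tuba1c and Tuba4a, the beta-tubulins Tubb2a, Tubb2b, Tubb3 and Tubb5, and the gamma-tubulin Tubg1. They were chosen by symbol from the 37310 genes of the GENCODE vM1 annotation of mm9, and all 9 were found there. The annotation holds 11 further tubulin genes. The rule by which the 9 were picked uses symbols and no measured value, but the choice was made with earlier results of these data known. Whole brains of F1 embryos at stage E17.5 were sequenced as polyA+ RNA in single-end reads of 36 bases. In BxC the mother was C57BL/6J and the father CastEi/J, and in CxB the mother was CastEi/J and the father C57BL/6J. The labels spell the strain CastEi/J, and the paper writes CAST/EiJ. C57BL/6J is the strain of the reference genome and CastEi/J is a wild-derived inbred strain, so every embryo carried 1 chromosome set of each. There is 1 library per cross, each from 1 unpooled brain. The CxB brain was male, and the sex of the BxC brain is not given in the sources used here. Chromosome Y held 1852 reads on 319 lines in BxC and 18212 reads on 7336 lines in CxB. The cross, the embryo, the library and possibly the sex therefore cannot be told apart. Differences between the crosses are given without a test or a spread over embryos. All intervals are 95% intervals that cover counting error only. Intervals for reads treat each read as independent, although many reads shared a position, and may be too narrow.

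Microtubules are hollow polymers of alpha-tubulin and beta-tubulin dimers, and gamma-tubulin sits in the ring complex that starts new microtubules. Mammals carry several genes, called isotypes, for each kind of tubulin, and their proteins differ mostly in a short acidic tail at the C-terminus that enzymes modify. Migrating and axon-bearing neurons are rich in microtubules, and changes in TUBA1A, TUBB2B, TUBB3, TUBB5 and TUBG1 are known from human malformations of cortical development. Tubb3 is widely used as a marker of young neurons. The coding sequences of isotypes are so alike that short reads often cannot be assigned to 1 gene, which bears on every value below because the deposited alignments are described as uniquely mapping.

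How alike the isotypes are was measured first on their coding sequences. Tuba1a shared 98.3% of aligned coding bases with Tuba1b and 97.1% with Tuba1c, and Tuba1b shared 97.9% with Tuba1c. All 3 genes lie on chromosome 15, Tuba1b at chr15:98761856-98764996 and Tuba1a at chr15:98780272-98783982 on the minus strand, and Tuba1c at chr15:98860322-98868536 on the plus strand. Tuba4a, at chr1:75211549-75215828 on the minus strand, shared 84.7% to 85.2% with them. Tubb2a at chr13:34166170-34169877 and Tubb2b at chr13:34218877-34222223, both on the minus strand, shared 96.5%. The other beta-tubulin pairs shared 81.2% to 84.5%. These pairs hold Tubb3, at chr8:125935324-125945915 on the plus strand, and Tubb5, at chr17:35970871-35975251 on the minus strand. An alpha-tubulin and a beta-tubulin shared 52.7% to 55.1%, and Tubg1, at chr11:100981252-100987733 on the plus strand, shared 48.7% to 51.9% with any other member.

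The following sequences, from the mm9 genome, show which bases lie under a window of 36 bases found only once. They are written 5′ to 3′ along the coding strand. Capitals mark bases covered by at least 1 window of 36 bases that occurs once in the genome and its annotated coding transcripts, and lower case marks bases that no such window covers. The first set is the last 45 coding bases, stop codon included, of 7 genes, the stretch that encodes the end of the C-terminal tail.
Tuba1c, chr15:98868396-98868440, plus strand: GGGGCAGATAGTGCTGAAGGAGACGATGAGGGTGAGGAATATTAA
Tuba4a, chr1:75212197-75212241, minus strand: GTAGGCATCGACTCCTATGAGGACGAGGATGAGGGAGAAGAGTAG
Tubb2a, chr13:34166337-34166381, minus strand: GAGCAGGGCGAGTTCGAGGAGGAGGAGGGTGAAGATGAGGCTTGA
Tubb2b, chr13:34219340-34219384, minus strand: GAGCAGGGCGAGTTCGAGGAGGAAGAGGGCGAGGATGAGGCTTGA
Tubb3, chr8:125945538-125945582, plus strand: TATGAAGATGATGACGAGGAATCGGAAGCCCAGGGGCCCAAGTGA
Tubb5, chr17:35971927-35971971, minus strand: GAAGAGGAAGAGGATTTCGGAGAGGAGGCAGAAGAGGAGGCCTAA
Tubg1, chr11:100987499-100987543, plus strand: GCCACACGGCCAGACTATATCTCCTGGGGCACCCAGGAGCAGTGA
The ends of Tuba1a and Tuba1b are not printed, and of their last 45 coding bases 10 and 28 were without a unique window and uncovered in each library. Every base of the 7 printed ends was within reach of a unique window, and every base was covered by reads in both libraries. Tubb2a and Tubb2b differed here at only 3 of 45 bases, G24A, T30C and A33G, with the Tubb2a base first and positions counted from 1 at the first printed base. All 3 lie at the last base of a codon and leave its amino acid the same, so both printed ends encode the same amino acids. The depth over the end of Tubb2b ran from 2607 to 7852 reads in BxC and from 2208 to 6778 in CxB. Over the end of Tubb2a it ran from 628 to 2148 reads and from 508 to 1796. The depth over the Tuba1c end was 15 to 38 reads in BxC and 7 to 18 in CxB.

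The second set shows the opposite case, in which a pair of isotypes cannot be told apart in mm9. From coding base 610 to 1160, Tubb2a and Tubb2b are identical over 551 bases inside 1 exon of each gene. The first 150 of these bases are printed for each gene.
Tubb2a, chr13:34166916-34167065, minus strand: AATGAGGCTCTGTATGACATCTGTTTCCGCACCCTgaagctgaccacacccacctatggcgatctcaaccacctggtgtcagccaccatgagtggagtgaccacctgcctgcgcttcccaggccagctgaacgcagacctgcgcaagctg
Tubb2b, chr13:34219919-34220068, minus strand: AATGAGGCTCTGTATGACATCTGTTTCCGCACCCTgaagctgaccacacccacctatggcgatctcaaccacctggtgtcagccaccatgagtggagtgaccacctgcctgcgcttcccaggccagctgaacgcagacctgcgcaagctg
The 35 capitals were covered and the 115 lower-case bases were not, in both genes and in both libraries. Over the whole identical run, 70 bases at its edges were within reach of a unique window, and the remaining 481 bases held no read in either gene or library.

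As a contrast, a coding stretch of Tuba1a inside 1 exon that unique windows cover throughout is printed next.
Tuba1a, chr15:98781099-98781183, minus strand: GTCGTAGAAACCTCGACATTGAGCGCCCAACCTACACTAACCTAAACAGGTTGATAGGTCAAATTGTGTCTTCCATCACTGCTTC
Over these 85 bases the depth was 1996 to 6231 reads in BxC and 1359 to 4689 in CxB. Tuba1b and Tuba1c each differed from Tuba1a at 10 of the same 85 coding positions, but none of their 85 bases was within reach of a unique window and all 85 were uncovered in both libraries.

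Over whole genes, the share of 36-base exon windows found once was 11.1% in Tuba1b, 20.6% in Tuba1a, 30.98% in Tubb2b, 32.9% in Tuba1c and 41.3% in Tubb2a. It was 77.7% in Tubg1 and in Tubb3, 96.4% in Tuba4a and 96.5% in Tubb5. Across 22316 protein-coding genes the median was 99.5%, and 9.70% of these genes were below 50%, as were 5 of the 9 members. The coding sequence had the fewest unique windows in 7 genes, while in Tubb3 and Tubb5 the 3′ untranslated region had fewer, 62.1% and 90.8% against 79.97% and 98.3% of coding windows. Only 2.88% of coding windows of Tuba1b, 5.88% of Tuba1c and 9.21% of Tuba1a were unique, against 94.4% of those of Tuba4a. The 5′ untranslated region was the easiest part of the Tuba1 genes to place, with 65.1% of windows unique in Tuba1b, 77.8% in Tuba1a and 97.8% in Tuba1c, although in Tuba1a the 3′ untranslated region, at 88.0%, was higher still. The 3′ untranslated regions of Tuba1b and Tuba1c had only 13.9% and 13.1% unique windows.

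The libraries held 128944754 reads in BxC and 109719746 in CxB, and a count of 0 allowed up to 0.0233 and 0.0273 RPM, a read count scaled to 1000000 reads in the library. These totals sum a count per alignment line whose meaning was inferred. Both totals are above the average number of sequenced reads per library that the paper states, and the reason was not tested. Every read count and RPKM given here rests on that reading of the count. Brain markers were present. The 4 neuronal genes found ran from 16.4 to 343 RPKM in BxC and from 16.9 to 355 in CxB. The highest was Stmn2, a neuronal tubulin-binding protein. The 5 progenitor genes ran from 3.44 to 70.5 RPKM in BxC and from 3.25 to 71.8 in CxB. The highest was Sox2, a progenitor transcription factor. RPKM are RPM for each kilobase of exon. Of 20 markers, 18 were found by name. Blood genes summed to 279 RPKM in BxC and 227 in CxB, with Hbb-b1 at 187 and 153. The liver, the muscle and the skin genes each summed to at most 2.67. Their part in the tubulin levels was not tested, and in whole tissue fewer cells of a type and less RNA per cell cannot be told apart.

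Tuba1a had the highest level of the 9 genes when reads of either strand were counted over all exon bases. It held 477725 reads in BxC, or 2249 RPKM (interval 2243 to 2256), and 294254 reads in CxB, or 1628 RPKM (1622 to 1634). That placed it in position 3 among 22380 protein-coding genes in each library. The 3 protein-coding genes nearest to it in the log2 RPKM of the 2 libraries were Nnat, a small membrane protein gene, at 1817 and 1621 RPKM, the mitochondrial mt-Cytb at 3205 and 2014, and Tubb2b. This likeness rests on 2 libraries only and is a statement of level.

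The Tuba1a reads were very unevenly placed. Of them, 81.8% in BxC and 77.9% in CxB overlapped the last 50 bases of the transcript, at its 3′ end. Only 4.93% and 6.25% of Tuba1a reads lay on the strand of the gene, against 43.8% to 76.5% in each other member and library. Most members had about equal reads on both strands, so a level on the gene strand may leave out reads of the gene. On the gene strand alone the Tuba1a level was 111 RPKM in BxC and 102 in CxB, position 5 of the 9 genes and below Tubb2a at 145 and 134. The most used position, chr15:98780283-98780318 on the plus strand, opposite to the gene, alone held 165292 reads in BxC and 96696 in CxB, or 34.6% and 32.9%. Without the last 50 bases, which was tried after seeing the data, Tuba1a held 421 RPKM in BxC and 372 in CxB, below Tubb2b, Tubb3 and Tubb5. By the median depth over bases within reach of a unique window, also added after seeing the data, Tuba1a had 23.5 and 21.5 RPM over a base. Tubb2b had 25.2 and 22.3, Tubb3 10.2 and 9.69, and Tubb5 9.85 and 9.16. The cause of the 3′ accumulation and of the strand imbalance was not tested.

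The next 3 genes were beta-tubulins. Tubb2b held 262276 reads in BxC and 202103 in CxB, or 1058 RPKM (1054 to 1062) and 958 (954 to 963). Tubb3 held 234550 and 172220 reads, or 974 RPKM (970 to 978) and 840 (836 to 844). Tubb5, the isotype also found widely in dividing cells, held 385591 and 304915 reads, or 900 RPKM (897 to 903) and 837 (834 to 840). The order Tubb2b, Tubb3, Tubb5 was the same in both libraries, but the counting intervals of Tubb3 and Tubb5 overlapped in CxB. These 3 genes stood in positions 6, 9 and 12 among protein-coding genes in BxC and 6, 8 and 9 in CxB. Tubb2a followed at 220 RPKM (218 to 222) from 44936 reads in BxC and 206 (204 to 209) from 35865 reads in CxB.

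The other 4 genes were far lower. Tubg1 held 3824 and 2914 reads, or 13.1 RPKM (12.7 to 13.5) in BxC and 11.7 (11.3 to 12.2) in CxB. Tuba4a, an alpha-tubulin known from muscle and mature neurons, held 2089 and 1995 reads, or 7.89 RPKM (7.56 to 8.24) and 8.86 (8.47 to 9.25). Tuba1c held 1575 and 1125 reads, or 6.18 RPKM (5.88 to 6.49) and 5.19 (4.89 to 5.50). Tuba1b, a ubiquitous alpha-tubulin of dividing cells, held 1353 and 1100 reads, or 5.60 RPKM (5.30 to 5.90) and 5.35 (5.04 to 5.67). Tuba1b and Tuba1c changed places between the libraries and their intervals overlapped in each. Tuba4a shares 633 exon bases with Stk16, and over the bases of no other gene its level was 9.42 and 10.5 RPKM. Tubb3 lies inside the span of Gm20388 but shared 0 exon bases with other genes.

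**Figure D1:**
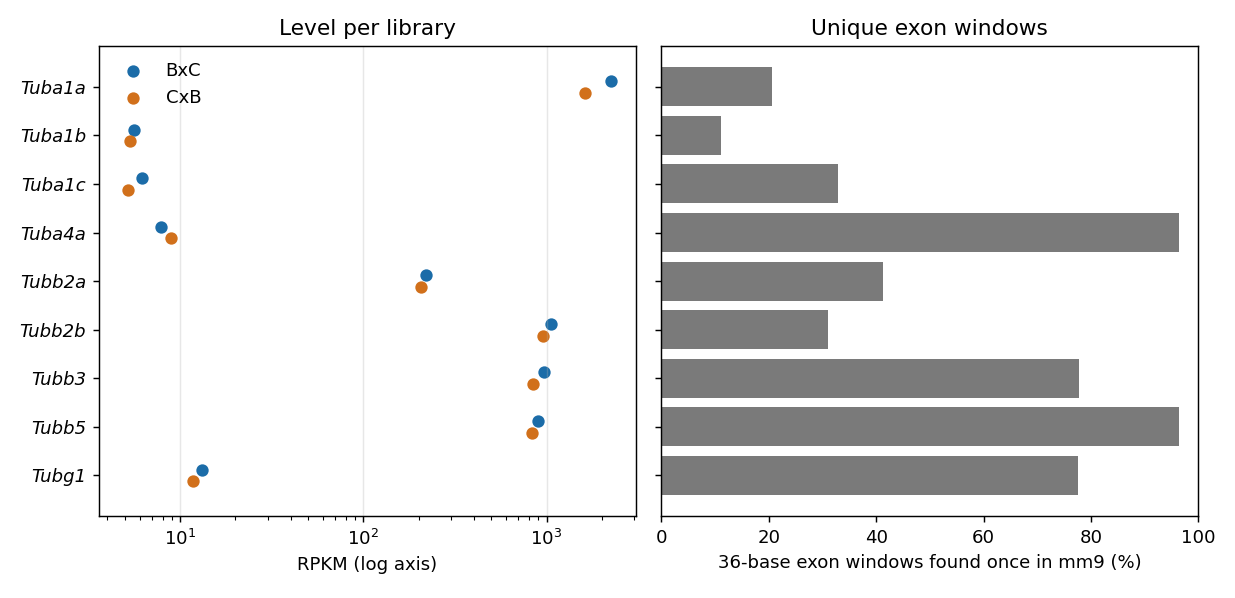
Left, the level of each of the 9 tubulin genes in RPKM on a log axis, with 1 point per library (BxC blue, CxB orange) and bars for the 95% counting interval, which are narrower than the points. Right, the percent of 36-base exon windows of each gene that occur once in mm9. Tuba1a, with the highest level, and Tuba1b, with one of the lowest, are the genes with the fewest unique windows.

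Because so few windows of some isotypes are unique, the 2 libraries were also counted over unique exon windows only, per kilobase of such windows. The levels were then 11832 RPKM in BxC and 8539 in CxB for Tuba1a, 3389 and 3091 for Tubb2b, 1338 and 1153 for Tubb3, 943 and 875 for Tubb5, and 538 and 498 for Tubb2a. Tuba1b was at 42.7 and 39.3 and stood above Tubg1, at 17.9 and 15.8, and Tuba4a, at 8.39 and 9.46. Tuba1c was at 1.39 and 0.890, from 108 and 59 reads in its unique exon windows. The Tuba1a value per kb of unique windows includes its last 50 bases. Of its reads, 390977 of 477725 in BxC and 229086 of 294254 in CxB overlapped those bases. No value per kb of unique windows was made without them. By median depth over bases within reach of a unique window, Tubb2b stood above Tuba1a in both libraries. In the coding sequence alone the order was led by Tubb5, at 2006 and 1864 RPKM, and Tuba1a, at 155 and 140, came after Tubb3, Tubb2b and Tubb2a. Counted once per alignment line, the order began with Tubb3, at 343 and 330 on the same scale made from lines, and Tubb5, at 330 and 313, and Tuba1a followed Tubb2b at 202 and 189. Over the principal transcript, the longest coding one, Tubb5 stood above Tubb2b, at 1128 and 1048 RPKM against 1058 and 958. The place of Tuba1a and the order of Tubb2b, Tubb3 and Tubb5 thus depended on how reads were counted. Tubb2b, Tubb3, Tubb5 and Tubb2a stayed above Tubg1, Tuba4a, Tuba1b and Tuba1c under each of these ways of counting.

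**Figure D2:**
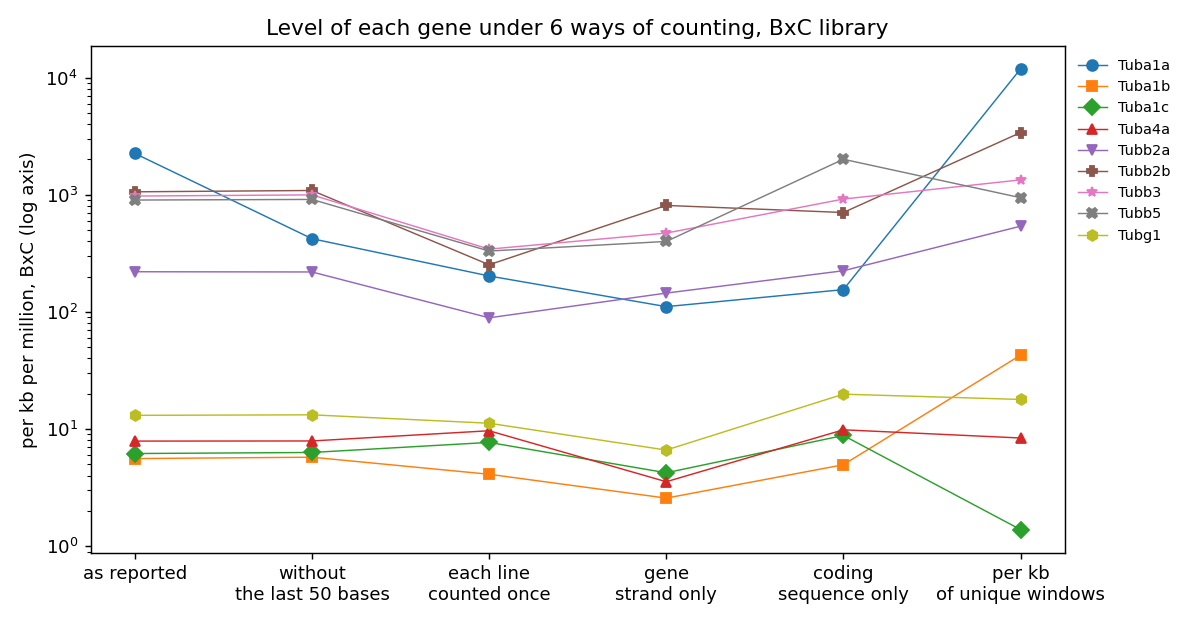
Level of each gene in the BxC library under 6 ways of counting, as RPKM on a log axis (reads, or lines for the counts of lines, per kb of the bases or windows counted), with 1 line per gene that joins its values. Tuba1a falls from 2249 as reported to 421 without its last 50 bases and 155 in the coding sequence, and stands at 11832 per kb of unique windows. The value per kb of unique windows includes the last 50 bases.

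Within the alpha-tubulins, reads per kb divided as 99.1% Tuba1a in BxC and 98.8% in CxB, with 0.348% and 0.538% for Tuba4a, 0.272% and 0.315% for Tuba1c, and 0.247% and 0.325% for Tuba1b. Without the last 50 bases of each transcript the Tuba1a share was 95.5% and 94.96%. These shares rest only on the reads that the alignments placed at each gene, and most coding windows of Tuba1a, Tuba1b and Tuba1c contributed no read to them. Within the 4 beta-tubulins, Tubb2b made up 33.6% and 33.7%, Tubb3 30.9% and 29.6%, Tubb5 28.6% and 29.4%, and Tubb2a 6.98% and 7.26%. Per kb of unique windows the Tubb2b share was 54.6% and 55.0%, and in the coding sequence it was 18.3% and 18.8%.

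Most uncovered exon bases lay where no unique window reached, 5386 of 5808 in BxC and 5376 of 6069 in CxB. Over the 9 genes, 5808 of 18514 exon bases, or 31.4%, were under no read in BxC, and 6069, or 32.8%, in CxB. Of the 5603 bases that no unique window covers, 96.1% (interval 95.6 to 96.6) were uncovered in BxC and 95.9% (95.4 to 96.4) in CxB. When a copy with up to 2 mismatches also counted against a window, the bases without a unique window grew to 9628. Of this larger set 57.1% and 57.8% were uncovered. Of the 12911 bases within reach of a unique window, 3.27% (2.97 to 3.59) and 5.37% (4.98 to 5.77) were uncovered. Neighbouring bases share reads, and these intervals treat bases as independent and are therefore too narrow. Among 207 other protein-coding genes with at least 100 RPKM in each library, leaving out the mitochondrial chromosome, the median share of uncovered bases was 1.47% for BxC and 2.05% for CxB. Over 40% of bases were uncovered in 5 of these genes in BxC and in 7 in CxB. Of the 9 members only Tuba1a, Tubb2a, Tubb2b, Tubb3 and Tubb5 reach that level. Their uncovered shares, in this order, were 60.9%, 44.4%, 43.5%, 3.10% and 0.241% in BxC. In CxB they were 60.8%, 44.5%, 45.1%, 3.48% and 0.241%.

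Gene by gene, Tuba1b had 1494 uncovered bases of 1875 in BxC and 1492 in CxB, the largest share of the 9 genes at 79.7% and 79.6%. Tuba1c had 1315 and 1554 of 1977, or 66.5% and 78.6%, the one gene whose uncovered length differed widely between the libraries. In Tuba1c 180 of 836 bases within reach of a unique window were uncovered in BxC and 427 in CxB, and most of this gap lay in the 5′ untranslated region, with 159 and 361 uncovered bases of 531. Tuba1a had 1003 and 1001 of 1647 bases uncovered, all of them in the coding sequence, and 0 of its 609 bases within reach of a unique window. The longest uncovered run of a transcript was 662 bases in Tuba1b in both libraries and 587 and 586 bases in Tuba1a.

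The beta-tubulins were split in the same way. Tubb2a had 704 and 705 uncovered bases of 1584, and Tubb2b 837 and 866 of 1922, each with its longest run at the 481 bases of identical sequence described above. Tubb3 had 58 and 65 uncovered bases of 1868, and 30 and 25 of its 88 bases without a unique window were covered. Tubb5 had 8 of 3322 in each library, and these are the same number as its bases without a unique window. Tuba4a had 6 and 2 of 2053. Tubg1 had 383 and 376 of 2266, of which 186 and 209 were within reach of a unique window.

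**Figure D3:**
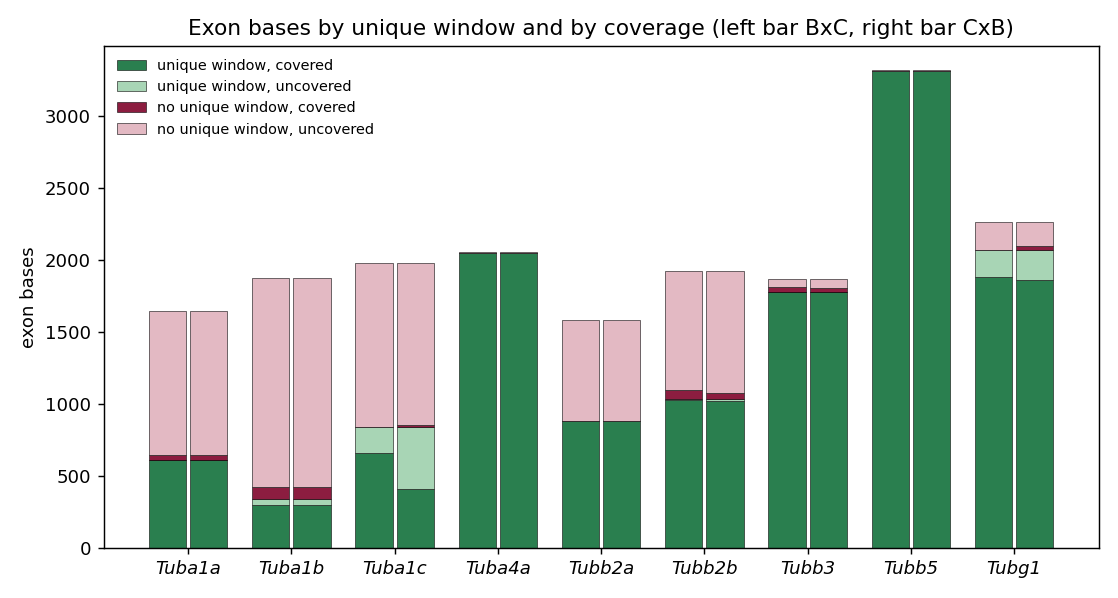
Exon bases of each gene (vertical axis, number of bases), stacked by whether any unique 36-base window covers the base and whether any read does, with BxC as the left and CxB as the right bar. Nearly all uncovered bases of Tuba1a, Tuba1b, Tubb2a and Tubb2b, and over 1100 in Tuba1c, lie in the pale red class of bases without a unique window.

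The depth was also uneven along the transcripts. In Tuba1a the 3′ untranslated region, 193 bases long, held 91.1% of the summed depth in BxC and 88.2% in CxB, and the 1356 coding bases held 5.19% and 6.40%. In Tubb2b the 5′ untranslated region of 121 bases held 50.3% and 48.9%, and its most used position, chr13:34222127-34222162 on the gene's own strand, held 13.4% and 13.3% of the gene's reads. Tubb5 was the opposite, with 89.0% of the depth in the coding sequence in each library. Tubb3 had 66.7% and 67.2% in the coding sequence and 32.9% and 32.4% in the 3′ untranslated region.

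**Figure D4:**
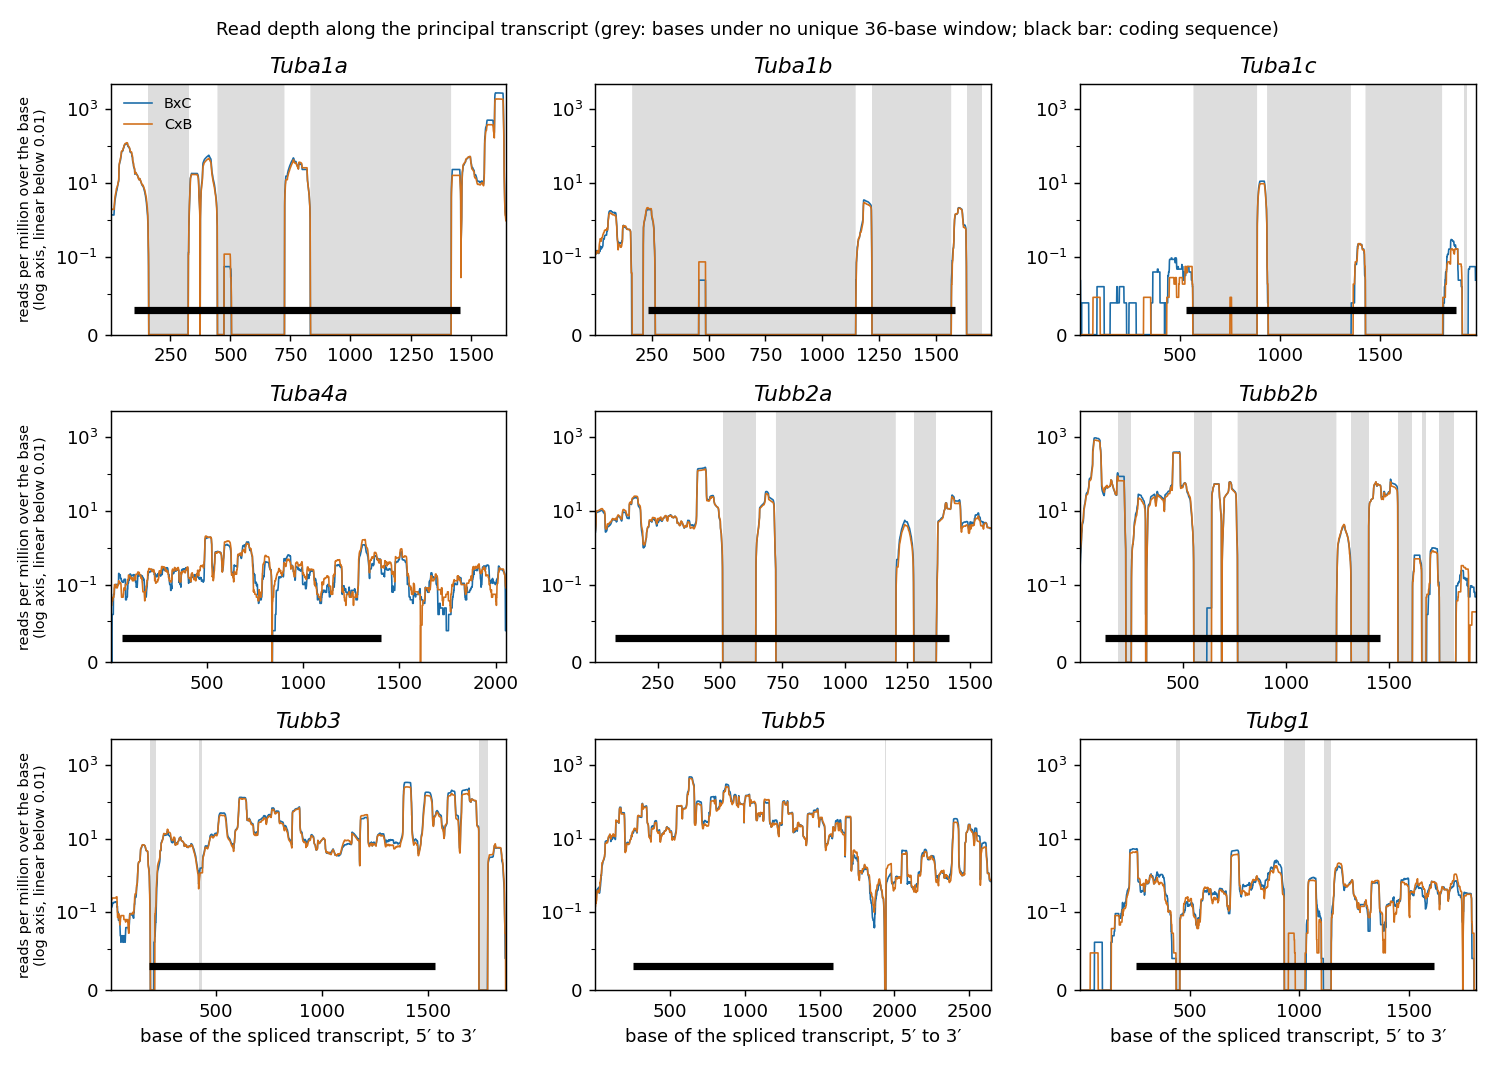
The depth in RPM over each base of the spliced principal transcript of the 9 genes, from 5′ to 3′, on an axis that is logarithmic above 0.01 and linear below, for BxC (blue) and CxB (orange). Grey marks bases under no unique 36-base window and the black bar the coding sequence. Depth drops to 0 across most grey stretches in both libraries, and the highest values stand at the 3′ end of Tuba1a and in the 5′ untranslated region of Tubb2b.

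Reads aligned across an annotated exon-exon junction were counted next. An intronless copy can hold the same spliced sequence, so such a read separates a gene from a copy only where the window is unique. Tubb2b had 9530 junction reads (9340 to 9723) in the BxC library and 7309 (7142 to 7479) in the CxB library, on all 3 junctions. Tubb5 had 7651 and 6556, Tubb3 2054 and 1734, and Tubb2a 1669 and 1622, and in each of these genes all 3 junctions of the principal transcript held reads. Tubg1 had 363 and 270, with 8 of 10 junctions in use in BxC and 7 in CxB, and Tuba4a had 61 and 41 on 3 junctions.

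In the Tuba1 genes the junctions were used very unequally. Tuba1a had 2155 junction reads in BxC and 1915 in CxB, all on the first junction of its principal transcript, which has 32 unique windows. There were 0 on the other 2 junctions of that transcript, which have 0 unique windows, and 0 on 2 junctions of other annotated transcripts, which have 32 and 33. Tuba1b had 244 and 221, all on its first junction, although none of the windows there was unique. Of the Tuba1c reads, 92.6% in BxC and 94.2% in CxB were junction reads. Of these, 1454 of 1459 in BxC and 1056 of 1060 in CxB crossed a single intron, chr15:98865029-98867465, whose junction has 14 unique windows and none once a copy with 1 mismatch counts. Nearly the whole Tuba1c level in these files therefore rests on 1 junction.

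Tubulin genes have left many processed copies in the genome, and 9 of the copies that share at least 300 windows with a member are given here, leaving out the tubulin genes themselves. The 9 leave out Gm17383, a pseudogene that shares 1125 windows with Tuba1b and 915 with Tuba1a and held 75 reads in BxC and 28 in CxB. Together they held 258072 reads in BxC and 205386 in CxB. The pseudogene Gm3756, at chr9:31742877-31744461, which resembles Tuba1a, Tuba1b and Tuba1c, held 144700 and 117747 of them. That is more than the 86748 and 65168 reads of Tuba1a without its last 50 bases. Gm14150, at chr2:151284594-151286106, held 28707 and 22298, and an unannotated copy of Tubb2b and Tubb2a at chr12:11887692-11889493 held 77971 and 60391. An unannotated copy of Tubb3 at chr6:136348470-136350115 held 3878 and 3027. The other 5 of the 9 copies held 59 to 1590 reads in BxC and 62 to 928 in CxB.

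Many reads at these copies lay at positions whose 36 bases are also those of a member. At Gm3756 this applied to 115264 reads in BxC, or 79.7%, and 94653 in CxB, or 80.4%. Its most used position, chr9:31743818-31743853, with 20159 and 13444 reads, is identical to an exon window of Tuba1a, of Tuba1b and of Tuba1c, and those 3 windows held 0 reads in each library. These 36 bases occur 10 times in the mm9 genome, although the alignments are described as uniquely mapping. Within Tubb2b, 11123 unspliced reads in BxC and 7182 in CxB also lay in exon windows that were not unique. Why such positions held reads was not tested. At the chromosome 12 copy 39.5% and 41.2% of the reads lay at positions whose 36 bases are also those of a member. Its most used window is shown because it spells a spliced Tubb2b coding junction without a gap, all in lower case since it is not unique. Unlike the Gm3756 window, it occurs only 1 time in the genome, and its other match is the spliced junction.
Tubb2b junction and chr12:11889381-11889416: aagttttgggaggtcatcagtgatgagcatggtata
This window held 9555 reads in BxC and 6471 in CxB on chromosome 12 and 0 reads at the Tubb2b junction in each library. At the chromosome 6 copy of Tubb3 66.5% and 63.6% of reads lay at such positions, but at Gm14150 only 2.51% and 2.83% did. The alignments give positions and not the bases of the reads, so whether the reads themselves matched a copy or a member was not tested. The levels of Tuba1a, Tuba1b, Tuba1c, Tubb2a, Tubb2b and Tubb3 given above leave out every read placed at a copy.

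The question for the reciprocal crosses was whether the tubulin genes differed between the BxC and the CxB library. Over all exon bases none of the 9 members was past 1.5-fold between the libraries, beside 1.10% of all 15427 genes with at least 100 reads in each library. Of all these genes 0.473% were past 1.5-fold and higher in CxB, and 0.622% were past it and lower. Each ratio is the log2 of RPM in CxB divided by RPM in BxC. Tuba1a had the lowest ratio over all exon bases, at -0.47 (interval -0.47 to -0.46), and Tuba4a the only positive one, at 0.17 (0.08 to 0.26). Tuba1c was at -0.25 (-0.36 to -0.14), Tubb3 at -0.21 (-0.22 to -0.20), Tubg1 at -0.16 (-0.23 to -0.09) and Tubb2b at -0.14 (-0.15 to -0.13). Tubb5 was at -0.11 (-0.11 to -0.10), Tubb2a at -0.09 (-0.11 to -0.07) and Tuba1b at -0.07 (-0.18 to 0.05). The median of the 9 was -0.14, beside -0.00 over all genes, for which the middle 90% ran from -0.29 to 0.28. Ratios were below 0 for 8 of the 9 members, beside 50.4% of all genes.

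The Tuba1a ratio, and its place as the lowest, depended on the counting. It was -0.47 per kb of unique windows, -0.14 in the coding sequence, -0.18 without the last 50 bases, -0.12 on the strand of the gene and -0.10 when each line was counted once. Tuba1c was lower than Tuba1a per kb of unique windows, in the coding sequence, without the last 50 bases, on the gene strand and by lines. Per kb of unique windows Tuba1c was at -0.64, past 1.5-fold, on 108 and 59 reads. Counting each line once also turned Tubb2b to 0.08 and Tuba1b to 0.06 and moved the median of the 9 to -0.045. With 1 library per cross, ratios of this size were not set against any spread between embryos.

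**Figure D5:**
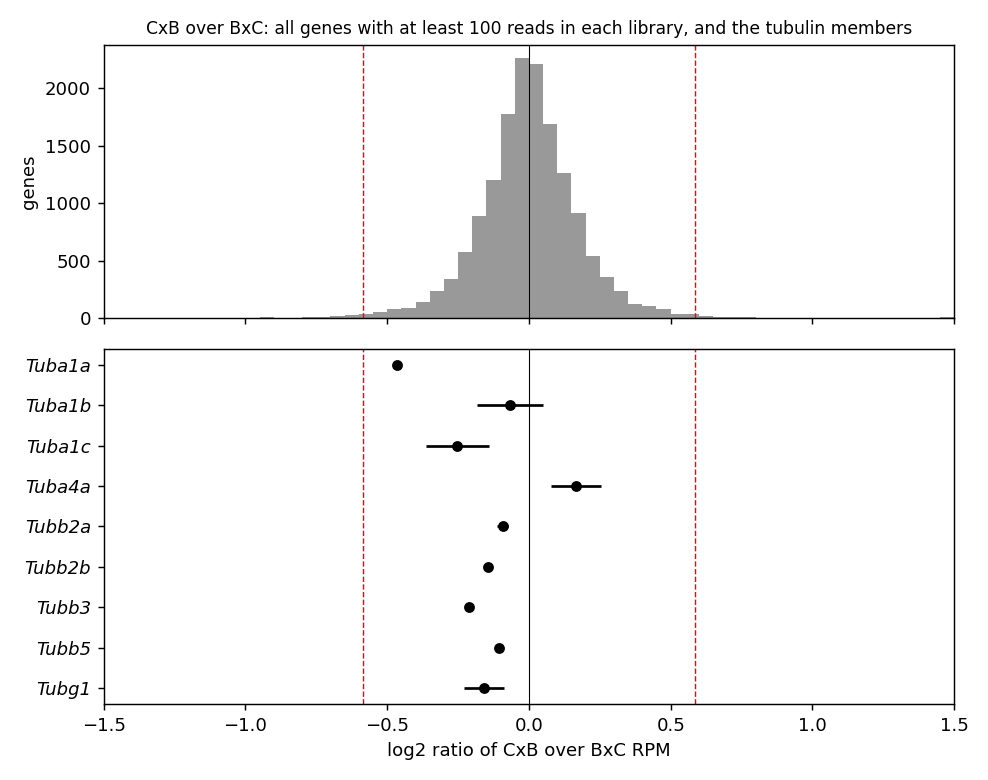
Top, the number of genes by log2 ratio of CxB over BxC for 15427 genes with at least 100 reads in each library. Bottom, the ratio of each tubulin gene with its 95% counting interval, where the solid line marks 0 and the dashed lines 1.5-fold. Of the 9 points, 8 lie left of 0 and none beyond a dashed line.

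The other tubulin genes give the wider family. Of 11, 8 had at least 100 reads in each library, and 0 of these were past 1.5-fold, with a median log2 ratio of -0.06 and 6 below 0, beside 1.10% and 50.4% of all genes. A count of 0 among so few genes is near that background. Tubb4, a beta-tubulin of maturing neurons, had the highest level of them at 201 and 179 RPKM, near that of Tubb2a, and a ratio of -0.17. Tubg2, the second gamma-tubulin, was at 14.9 and 14.0 RPKM, close to Tubg1. The highest ratios were those of Tuba3b at 0.24, a gene with 95.2% of its exon bases uncovered and 0 junction reads in each library, and Tube1 at 0.16, and the lowest were those of Tubb4 and of Tubb6, also at -0.17. Tuba8 had 93 and 90 reads, Tubb1, the platelet isotype, 16 and 2, and Tubal3 0 and 2.

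The genes that fold, modify and assemble tubulin were taken as a list of 39, and all 39 had at least 100 reads in each library. None was past 1.5-fold, beside 1.10% of all genes, and 18 of 39 were below 0, beside 50.4%. Their median was 0.02, beside -0.00 over all genes, and neither count stands apart from the background. Among the 18 chaperones, which include the prefoldin and chaperonin subunits that fold new tubulin, the median was -0.00 and the range -0.28 to 0.21. Pfdn2, a prefoldin subunit, had the highest level of the list at 130 and 107 RPKM and the second lowest ratio, at -0.28. Among 12 enzymes that add or remove amino acids or acetyl groups on tubulin, the median was 0.04. Ttll11, a glutamylase, had the highest ratio of the list at 0.48 (interval 0.32 to 0.64) on 590 and 699 reads, and Agbl4, a carboxypeptidase, the next at 0.23 on 285 and 284 reads. Among 8 genes of the gamma-tubulin ring complex, the partners of Tubg1, the median was 0.04. Mzt2, a small subunit of the ring, had the lowest ratio of the list at -0.48 (-0.53 to -0.44) and a level of 72.9 and 52.1 RPKM, below Pfdn2 in each library and, in CxB, also below Atat1, a tubulin acetyltransferase at 58.9 RPKM in each library. Ttc5, which recognises nascent tubulin chains and triggers decay of their mRNA, was at 30.9 and 27.7 RPKM with a ratio of -0.15.

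The series was made to study imprinting, so the members were placed against the deposited catalog of known imprinted genes. No member overlapped an entry. The nearest were 1.88 to 1.97 Mb from the Tuba1 genes, at Slc38a4, and 11.9 Mb from Tuba4a, at Zdbf2, and the chromosome of Tubb3 held 0 entries. Allelic expression of the members was not analysed here, since the alignments list no bases.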

How the data were processed

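Total RNA of 2 whole brains was extracted with Trizol, polyA+ RNA was selected and libraries were made with an Illumina mRNA-Seq kit and a NEBNext kit. The methods describe strand retention by dUTP, while most members had about equal reads on both strands, so either strand was counted. The authors aligned reads with Novoalign, version not given in the sources used here, converted alignments to mm9 and kept uniquely mapping reads. The sources do not say which of their alignments these are. The deposited files hold a count per line, read as the number of identical reads, a meaning inferred from the values, and several lines can share a position. Of the columns, 0 were left without a library or the catalog as their owner.

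Reads were summed over the union of exons of GENCODE vM1, which uses mm9, and scaled to RPKM. Every 36-base window of each member was searched for in the genome, on both strands, and in annotated coding transcripts. Exact Poisson and Clopper-Pearson intervals at 95% cover counting error only, and a count of 0 allows up to 3 reads. No test was possible with 1 library per cross. Ratios used genes with at least 100 reads in each library, and a gene was counted as past the threshold at 1.5-fold. The members and lists were chosen with earlier results of these data known. Named besides the members were, of the other tubulins and of the list of 39 genes, those with the 2 highest and 2 lowest ratios and the 2 highest levels, genes past 1.5-fold, the 3 genes nearest to the leading member in level, overlapping genes and copies. Ttc5, Tuba8, Tubb1 and Tubal3 were named after their values were seen. Identity was counted over aligned coding bases, gaps included. Alternatives counted lines, positions, the gene's strand, coding or principal-transcript bases, unique windows, other scalings, minimums and mismatches. Calculations were tested on simulated data and used Python 3.11.15, numpy 2.4.6, scipy 1.17.1, numba 0.67.0 and Biopython 1.88.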

Additional observations from a re-analysis of the deposited data

How the results depend on the processing

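Depth was no limit for Tuba1a and the beta-tubulins, but Tuba1c had only 108 and 59 reads in unique exon windows. No paired analysis was possible because there is 1 library per cross, and for the same reason leaving out a library was not run. Distinct positions, the last 50 bases, the median depth and, for the ratios, unique windows, coding sequence and principal transcripts were chosen as alternatives after seeing the data. Values below are given for BxC first and CxB second, and except where the construction of an alternative shows it, the cause of a change was not tested.

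The levels of the 9 genes summed to 5434 and 4501 RPKM. The sum was 1250 and 1218 with each line counted once, 1952 and 1734 on the gene strand, 18111 and 14221 per kb of unique windows, 4052 and 3719 in the coding sequence, 5666 and 4716 over principal transcripts, 148 and 167 over distinct positions, and 3668 and 3300 without the last 50 bases. Over bases of no other gene it stayed within counting error. The number of members that changed place in the order was 4 and 3 per kb of unique windows, 5 and 7 in the coding sequence, 3 and 3 over principal transcripts, 4 and 4 without the last 50 bases, and 6 and 5 by median depth.

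The Tuba1a share of alpha-tubulin was 90.4% and 90.1% by lines, 91.5% and 91.1% on the gene strand, 99.6% and 99.4% per kb of unique windows, 86.8% and 85.8% in the coding sequence, 95.5% and 94.96% without the last 50 bases, 48.1% and 50.4% over distinct positions, and 96.9% and 96.6% by median depth. The share per kb of unique windows includes the Tuba1a reads over its last 50 bases. The Tubb2b share of beta-tubulin was 24.9% and 26.8% by lines, 44.4% and 44.6% on the gene strand, 54.6% and 55.0% per kb of unique windows, 18.3% and 18.8% in the coding sequence, 31.3% and 31.4% over principal transcripts, 33.8% and 33.97% without the last 50 bases, 14.4% and 14.8% over distinct positions, and 49.2% and 47.1% by median depth.

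The median log2 ratio of the members was -0.045 by lines, -0.12 on the gene strand, -0.13 per kb of unique windows, -0.11 in the coding sequence, 0.16 over distinct positions, and -0.028 by median depth over the 8 genes with a median above 0. Below 0 were 8 of 9 members as reported, 6 of 9 by lines and 4 of 8 by median depth. The values over distinct positions, here and above, bear on neither levels, shares nor ratios. Such a count cannot exceed the positions where a read can be placed, so abundant genes held nearly equal counts in both libraries (738 and 742 in Tuba1a, 1145 and 1134 in Tubb2b). Divided by 36575945 and 31155725 lines, these gave ratios above 0, such as 0.24 in Tuba1a and 0.22 in Tubb2b. Of the 9 ratios only that of Tuba4a was lower than reported, at 0.12 against 0.17. Scaling by the median ratio over genes moved all ratios by less than 0.01, and so did leaving out chromosome X and the mitochondrial chromosome. Of all genes, 169 of 15427 were past 1.5-fold, 26 by lines, 1536 of 19839 at a minimum of 10 reads and 32 of 11975 at 500 reads, and 21 were past 2-fold. The list of 39 genes had 0 past 1.5-fold under every alternative run for it.

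The bases without a unique window grew to 7727 when copies with 1 mismatch counted, and 70.6% and 70.9% of these were uncovered. With 2 mismatches they grew to 9628, and 57.1% and 57.8% of these were uncovered. The members' unique exon windows fell from 10012 to 5962 with 2 mismatches, and with 1 mismatch they were 7726. The uncovered bases and the junction reads stayed within 1.5 times of the reported sums.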
